A study of Homo sapiens with 12 samples.

Results

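The DNAJ family, also called the HSP40 or J-domain proteins, was followed through 12 arrays of HK-2 cells exposed to the compound labelled CdCl or to control vehicle. Members were the gene symbols that begin with DNAJA, DNAJB or DNAJC and a number and that stand alone on at least 1 probe set, a group of short probes to the same transcript. There were 47 such symbols among the 19775 genes on the array, with 116 probe sets. Of these symbols, 43 name protein-coding genes and 4 name non-coding transcripts (DNAJB8-AS1, DNAJC27-AS1, DNAJC3-DT and DNAJC9-AS1). Each symbol was read from its brightest probe set by the mean of the 12 arrays, so the 36 symbols with several probe sets have further readings, which are described further on. A further 3 probe sets carry a DNAJ symbol beside another gene's and were not used. DNAJC25 is known here only from such a probe set and is not a member.

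J-domain proteins are co-chaperones of HSP70. The J domain binds HSP70 and speeds its ATP hydrolysis, which locks HSP70 onto an unfolded client, and nucleotide exchange factors later release it. Each compartment has its own set: cytosolic members serve HSC70 and the inducible HSP70s, members in the lumen of the endoplasmic reticulum (ER) serve HSPA5 (BiP), and mitochondrial members serve HSPA9 (mortalin). In proximal tubule cells, cadmium is known as a nephrotoxic metal that binds protein thiols. The heat shock response induces cytosolic members, and the unfolded protein response induces those of the ER lumen.

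HK-2 is an immortalised human line derived from renal proximal tubule epithelium. The 4 groups were CdCl at 12 h, control vehicle at 12 h, CdCl at 48 h and control vehicle at 48 h, with 3 arrays each that the labels call biological replicates. All groups shared the medium, with insulin, transferrin, selenite, hydrocortisone and epidermal growth factor. The labels give no dose of CdCl. Of 10 markers of renal epithelium, PAX8, CDH6, KRT8 and KRT18 read above 4 log2 units on all 12 arrays, and PAX2, GGT1, ANPEP, LRP2, CUBN and AQP1 read below 4 on all of them. Of 8 measured markers of endothelium, blood cells and fibroblasts, 7 read below 4 on every array, and COL1A1 read 7.05 to 7.99. Arrays of the same group correlated at r = 0.9965 to 0.9982 over probe sets, and arrays of different groups at 0.9731 to 0.989.

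Levels are log2 signals as deposited, so a difference of 1 is a 2-fold change. A gene was tested if it read above 4 on at least 3 arrays, which 34 of the 47 symbols did, all of them on every array. Tests are limma's moderated test with Benjamini-Hochberg adjustment over 10683 genes, called at an adjusted p under 0.05, and errors on differences are standard errors (SE) of that fit. In RNA from whole cultures, fewer cells expressing a gene and less RNA per cell cannot be told apart. Nothing in the labels says that the cultures were set up on separate days, so the p-values measure the spread between these arrays.

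At 12 h, of the 34 tested members, 11 were higher in CdCl cells than in control cells, 9 were lower and 14 had no call, where over all genes tested 16.7% were higher and 39.7% were lower. Members higher by at least 2-fold numbered 8, against a background of 4.43%, and 0 were lower by at least 2-fold, against 4.05%. Among the 14 tested cytosolic and nuclear members, 7 were higher and 1 was lower. In the ER lumen, 3 of 4 were higher, and in the ER membrane 0 of 5 were higher and 3 were lower. Of the 4 tested mitochondrial members, 0 were higher and 2 were lower. The median difference was 2.14 over the 4 ER luminal members, 0.14 over all 16 cytosolic members, -0.18 over the 5 ER membrane members and -0.18 over all 5 mitochondrial members, beside -0.02 over all 19775 genes and -0.16 over the genes tested.

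At 48 h, 14 members were higher, 8 were lower and 12 had no call, where 26.5% of all genes tested were higher and 28% were lower. Members higher by at least 2-fold numbered 3, against a background of 4.82%, and 0 were lower by at least 2-fold, against 5.05%. Among the cytosolic members 7 were higher and 3 were lower, and all 4 ER luminal members were higher. The ER membrane had 1 higher and 2 lower, and the mitochondria had 0 higher and 1 lower. The median difference over the ER luminal members was 0.49, beside 0.07 for the cytosolic members, 0.01 for the ER membrane, 0.01 for the mitochondria and 0.01 over all genes.

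**Figure D1:**
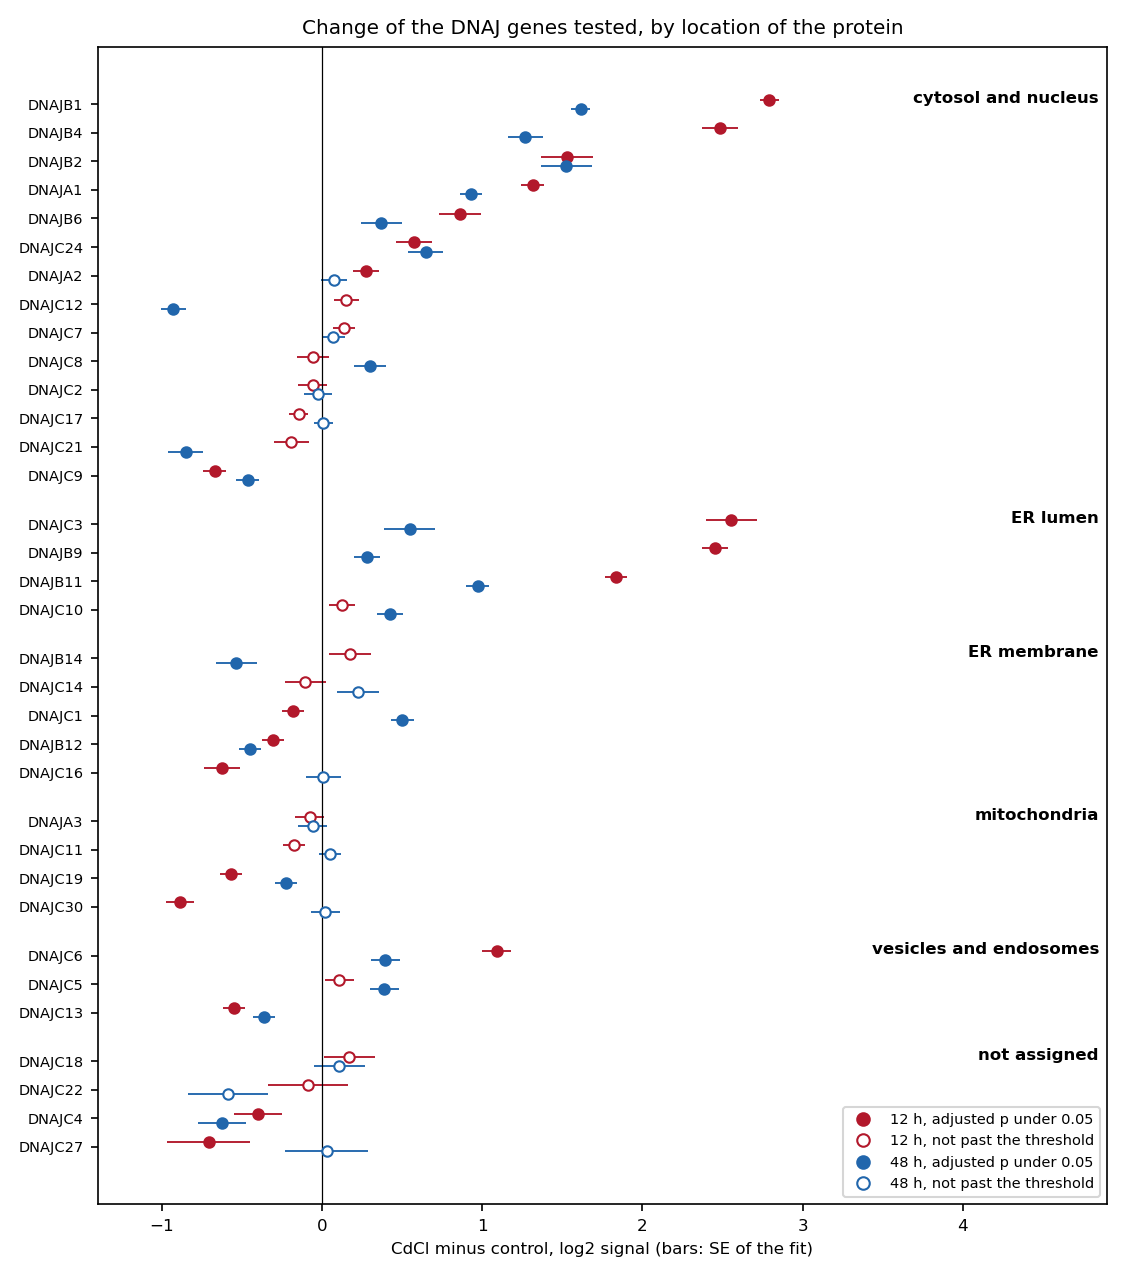
Difference between CdCl and control cells in log2 signal for the 34 tested DNAJ genes, grouped by the location of the protein, at 12 h (red) and 48 h (blue); points are differences between means of 3 arrays, bars are the SE of the fit, and filled points passed an adjusted p of 0.05. The points farthest to the right at 12 h are the cytosolic DNAJB1 (2.79) and DNAJB4 (2.48) and the ER luminal DNAJC3 (2.55) and DNAJB9 (2.45), and DNAJC30 of the mitochondria is farthest to the left (-0.89).

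DNAJB1 is the stress-inducible cytosolic HSP40 that delivers misfolded proteins to HSP70. It read 12.17, 12.27 and 12.34 in CdCl cells at 12 h, against 9.46, 9.48 and 9.46 in control cells. At 48 h it read 10.95, 10.93 and 11.00 in CdCl cells, against 9.28, 9.35 and 9.40 in control cells. The groups did not overlap at either time, the control level was close at both times, and the CdCl level at 48 h lay between the 12 h level and the controls. The difference was 2.79 ± 0.06 at 12 h (limma adjusted p = 5.9e-11) and 1.61 ± 0.06 at 48 h (adjusted p = 4.3e-09).

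DNAJB4, a close relative of DNAJB1, read 10.80, 10.96 and 11.16 in CdCl cells at 12 h, against 8.64, 8.43 and 8.39 in control cells. After 48 h it read 9.77, 9.69 and 9.97 in CdCl cells, against 8.59, 8.65 and 8.38 in control cells. The CdCl arrays lay above the control arrays of the same time without overlap, while the controls of both times overlapped each other. It was 5.59-fold higher at 12 h and 2.41-fold higher at 48 h (limma adjusted p = 1.7e-08 and 2.9e-06).

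DNAJA1, a farnesylated partner of HSC70, read 13.04, 13.13 and 13.27 in CdCl cells at 12 h, against 11.82, 11.78 and 11.90 in control cells. Its 48 h levels were 12.23, 12.28 and 12.35 in CdCl cells, against 11.34, 11.33 and 11.40 in control cells. No array of a CdCl group fell among its controls. The difference was 1.31 ± 0.07 at 12 h and 0.93 ± 0.07 at 48 h (limma adjusted p = 7.5e-08 and 8.6e-07). Its paralog DNAJA2 was higher by a smaller amount at 12 h, 0.27 ± 0.08 (adjusted p = 0.013), and without the third CdCl array of that time the adjusted p was 0.052.

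DNAJB2 carries ubiquitin-interacting motifs and steers HSP70 clients to the proteasome. It read 6.17, 6.31 and 6.49 in CdCl cells at 12 h, against 4.69, 5.20 and 4.50 in control cells. The 48 h readings were 6.48, 6.15 and 6.28 in CdCl cells, against 4.94, 4.69 and 4.72 in control cells. The CdCl arrays lay above the controls at both times, and the controls were more widely spread at 12 h than at 48 h. The difference was 1.53 ± 0.16 at 12 h and 1.52 ± 0.16 at 48 h (limma adjusted p = 1.3e-05 and 1.1e-05), and the change between the times was -0.01 with a 95% interval from -0.51 to 0.50.

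DNAJB6, which holds polyglutamine proteins in solution, was higher at 12 h (0.86 ± 0.13, limma adjusted p = 0.00014) and at 48 h (0.37 ± 0.13, adjusted p = 0.027). The 48 h call of DNAJB6 was lost without the first or the third CdCl array or the second or the third control array of that time, with an adjusted p between 0.061 and 0.099. DNAJC24, an enzyme partner in the synthesis of diphthamide on translation elongation factor 2, was higher by 0.57 ± 0.11 at 12 h and 0.65 ± 0.11 at 48 h. DNAJC9, a chaperone of histones H3 and H4, was lower by 1.59-fold at 12 h and 1.38-fold at 48 h, and was the only cytosolic or nuclear member called lower at 12 h.

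DNAJC12, a co-chaperone of the aromatic amino acid hydroxylases, had no call at 12 h and was lower at 48 h. Its mean was 9.70 ± 0.08 in CdCl cells at 48 h, against 10.63 ± 0.14 in control cells (SD, n = 3 each), a difference of -0.93 ± 0.08 (limma adjusted p = 2.6e-06). At 12 h its means were 7.54 ± 0.08 in CdCl cells and 7.39 ± 0.07 in control cells. DNAJC21, which acts in the assembly of the large ribosomal subunit, was also called lower at 48 h alone on its brightest probe set. Its 48 h mean was 8.33 ± 0.13 in CdCl cells against 9.18 ± 0.17 in control cells. Its 12 h difference was called (-0.30, limma adjusted p = 0.037) without the first control array of 12 h. Other probe sets of DNAJC21 were called lower at 12 h (-0.33 and -0.32, limma adjusted p over all probe sets = 0.0052 and 0.043). DNAJC8, a spliceosome component, was higher at 48 h by 0.30 ± 0.10 although 1 control array lay above 2 of the CdCl arrays, and its call was lost without the second CdCl array or the first or the second control array of that time (adjusted p between 0.086 and 0.09). DNAJC2, a ribosome-associated chaperone, DNAJC7, which binds both HSP70 and HSP90, and DNAJC17 had no call at either time on their brightest probe sets, although DNAJC17 was lower at 12 h (-0.21, adjusted p = 0.014) without the third control array.

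**Figure D2:**
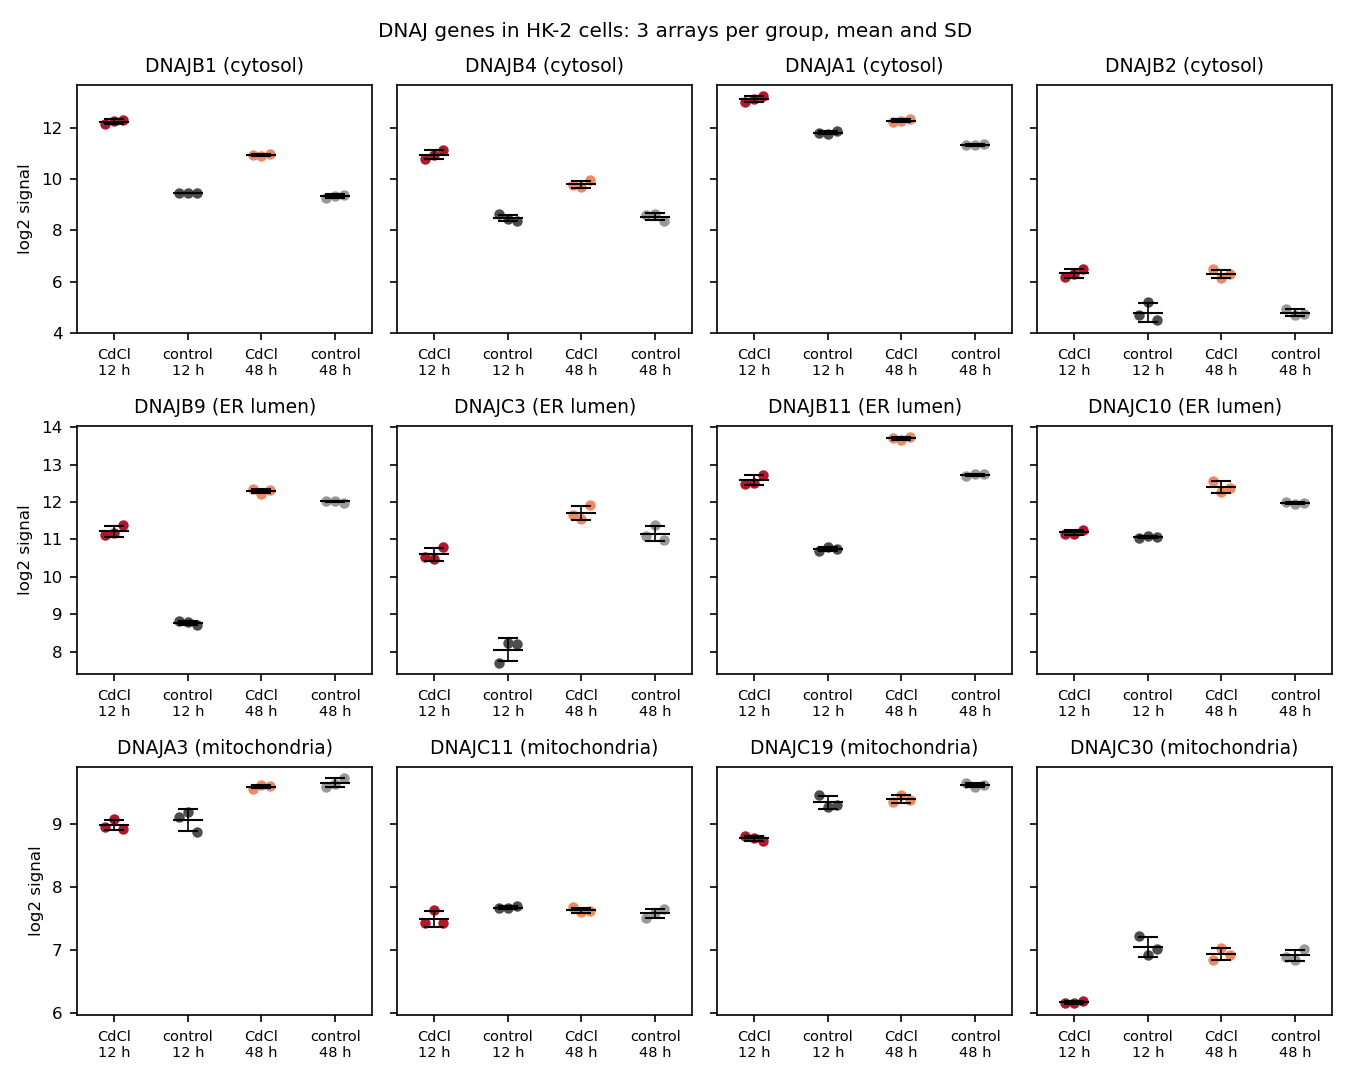
Log2 signal of 12 DNAJ genes on each of the 12 arrays, in rows of cytosolic, ER luminal and mitochondrial members; points are arrays, horizontal lines are group means and bars are the SD of 3 arrays, and the vertical axes do not start at 0. DNAJB1, DNAJB4 and DNAJA1 stand highest in CdCl cells at 12 h, while DNAJB9, DNAJC3 and DNAJB11 stand higher on average in control cells at 48 h than in CdCl cells at 12 h.

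The promoters of the coding members were read for the heat shock element, the site of the heat shock factors, built from inverted GAA units. Sequences came from RefSeq on build GRCh38.p14, in windows of 250 bases before to 50 after each start site, for 39 of the 43 coding members. The 3-unit form GAANNTTCNNGAA was searched on both strands and lay in 172 of 35093 windows (0.49%), DNAJB6 and DNAJA1 among them. The 2-unit forms GAANNTTC and TTCNNGAA, which overlap the 3-unit form and were added after seeing the data, lay in 13.5% of all windows and in 9 of the 51 windows of members. The 3 stretches shown are examples from members that were higher at both times, with the GAA and TTC units of each match in capitals. DNAJB4 and DNAJC6, which also hold a 2-unit form and were higher at both times, are not shown. DNAJB1 is given from chr19:14518398-14518547 (minus strand) and DNAJB6 from chr7:157336854-157337003 (plus strand), each the 150 bases before a start site. DNAJA1 is given from chr9:33025273-33025302 (plus strand), the 30 bases from its start site.
DNAJB1: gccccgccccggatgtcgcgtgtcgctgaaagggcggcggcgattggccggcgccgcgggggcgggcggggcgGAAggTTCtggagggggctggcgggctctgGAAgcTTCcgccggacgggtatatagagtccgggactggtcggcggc
DNAJB6: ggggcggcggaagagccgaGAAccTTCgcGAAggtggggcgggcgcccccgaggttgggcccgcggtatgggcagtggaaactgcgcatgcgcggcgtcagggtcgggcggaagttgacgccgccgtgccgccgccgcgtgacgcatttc
DNAJA1: gcgGAActTTCcaGAAcgctcggtgagagg
A 2-unit form was found at 8 members. Of the 10 members higher at 12 h that have a window, 5 held it (DNAJA1, DNAJB1, DNAJB4, DNAJB6 and DNAJC6), as did 0 of the 21 tested members with a window that were not higher. It was also in 3 of the 8 members below the signal filter that have a window (DNAJA4, DNAJB7 and DNAJC15). DNAJA4 holds the same pair of letter strings as DNAJB1, GAAGGTTC and GAAGCTTC, and read 2.97 to 3.89 on all 12 arrays. A match of letters is a description of the window and not a measured site, and no test was made of these counts. The counts by call are per gene, whereas the 13.5% above is per window. The share among all genes by their 12 h call was not counted. Without that background, no link between the letters and the change is drawn from the counts.

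In the ER lumen, control cells as well as CdCl cells differed between the times. DNAJB9 (ERdj4) takes part in ER-associated degradation and restrains the sensor IRE1. It read 11.11, 11.17 and 11.39 in CdCl cells at 12 h, against 8.81, 8.79 and 8.72 in control cells. At 48 h it read 12.35, 12.23 and 12.32 in CdCl cells, against 12.02, 12.04 and 11.99 in control cells. All 3 controls at 48 h lay above all 3 CdCl arrays at 12 h. The CdCl difference was 2.45 ± 0.08 at 12 h (limma adjusted p = 6.9e-10) and 0.28 ± 0.08 at 48 h (adjusted p = 0.0085), and the control cells at 48 h were 3.25 ± 0.08 above the control cells at 12 h (adjusted p = 1.8e-10).

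DNAJC3 (p58IPK) binds unfolded proteins in the ER lumen. It read 10.52, 10.48 and 10.80 in CdCl cells at 12 h, against 7.70, 8.23 and 8.21 in control cells. After 48 h it read 11.66, 11.54 and 11.92 in CdCl cells, against 11.10, 11.40 and 10.98 in control cells. The CdCl and control arrays did not overlap at either time, although the gap at 48 h was narrow. The difference was 2.55 ± 0.16 at 12 h and 0.55 ± 0.16 at 48 h (limma adjusted p = 2.5e-07 and 0.014). The 48 h call was lost without the third CdCl array (0.44, adjusted p = 0.058) or without the third control array (0.46, adjusted p = 0.055).

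DNAJB11 (ERdj3), a soluble BiP co-chaperone that is mutated in a form of polycystic kidney disease, had the widest gap of the ER luminal members at 48 h. It read 12.49, 12.52 and 12.74 in CdCl cells at 12 h, against 10.70, 10.80 and 10.75 in control cells. Its 48 h levels were 13.72, 13.66 and 13.74 in CdCl cells, against 12.70, 12.76 and 12.75 in control cells. Its controls at 48 h lay in the range of its CdCl arrays at 12 h or just above it. The difference was 1.84 ± 0.07 at 12 h and 0.97 ± 0.07 at 48 h (limma adjusted p = 4.9e-09 and 7.3e-07).

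DNAJC10 (ERdj5), a disulfide reductase of the ER that cuts the bonds of misfolded proteins, was called at 48 h and not at 12 h. It read 11.16, 11.16 and 11.26 in CdCl cells at 12 h, against 11.05, 11.09 and 11.07 in control cells. The 48 h readings were 12.57, 12.26 and 12.38 in CdCl cells, against 12.01, 11.94 and 11.99 in control cells. The arrays separated at both times, and by more at 48 h. The 12 h difference of 0.12 ± 0.08 had no call (limma adjusted p = 0.2), and that at 48 h was 0.42 ± 0.08 (adjusted p = 0.00066).

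The promoters of DNAJB9, DNAJC3 and DNAJB11 are shown because these 3 ER luminal members were higher at both times. DNAJC10, which had no call at 12 h, is not shown, and its window also holds CCACG and CCAAT letters. Capitals mark CCACG and CCAAT, or their reverse complements CGTGG and ATTGG, the letters of which the ER stress response elements are built. Each line is the 250 bases before the start site on the plus strand, from chr7:108569624-108569873 for DNAJB9, chr13:95676889-95677138 for DNAJC3 and chr3:186570470-186570719 for DNAJB11.
DNAJB9: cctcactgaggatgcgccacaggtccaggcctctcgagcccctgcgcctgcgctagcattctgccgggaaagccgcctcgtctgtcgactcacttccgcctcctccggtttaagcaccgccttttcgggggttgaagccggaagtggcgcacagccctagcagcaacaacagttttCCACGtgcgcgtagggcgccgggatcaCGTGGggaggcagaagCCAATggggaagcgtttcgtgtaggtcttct
DNAJC3: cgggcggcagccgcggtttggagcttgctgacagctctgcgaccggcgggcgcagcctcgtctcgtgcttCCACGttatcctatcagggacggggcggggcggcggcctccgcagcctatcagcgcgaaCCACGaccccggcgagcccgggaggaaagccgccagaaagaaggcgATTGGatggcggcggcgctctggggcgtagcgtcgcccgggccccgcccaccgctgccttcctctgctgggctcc
DNAJB11: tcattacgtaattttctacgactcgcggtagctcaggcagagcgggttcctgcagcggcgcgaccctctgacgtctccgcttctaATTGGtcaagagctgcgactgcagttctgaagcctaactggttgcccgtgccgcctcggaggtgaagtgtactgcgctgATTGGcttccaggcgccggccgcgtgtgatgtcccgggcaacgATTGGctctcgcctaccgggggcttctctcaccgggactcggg
CCACG lay in 38.1% of all windows and CCAAT in 34.6%, searched on both strands. Of the 51 windows of members, 30 held CCACG (58.8%) and 22 held CCAAT (43.1%). DNAJB11 had no CCACG in its window. The mitochondrial DNAJA3, DNAJC11, DNAJC19 and DNAJC30, not higher at either time, had CCACG in theirs. The full elements, the ERSE (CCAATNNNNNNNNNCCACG) and the ERSE-II (ATTGGNCCACG), lay in 0.0769% and 0.0541% of windows and in none of the members' windows. This says only that these exact letters are not there.

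In the ER membrane the members went in different directions. DNAJB12 and DNAJB14 place their J domain in the cytosol and assist the degradation of membrane proteins. DNAJB12 read 8.52, 8.47 and 8.58 in CdCl cells at 12 h against 8.78, 8.87 and 8.83 in control cells, and 8.76, 8.90 and 8.74 in CdCl cells at 48 h against 9.26, 9.28 and 9.21 in control cells. Both pairs of groups were apart, with differences of -0.30 ± 0.07 and -0.45 ± 0.07, but the 3 other tested probe sets of DNAJB12 had no call at either time. DNAJB14 read 9.63, 9.20 and 9.62 in CdCl cells at 48 h, against 9.94, 10.22 and 9.90 in control cells, and was lower by 0.54 on the log2 scale (limma adjusted p = 0.0035). At 12 h its groups overlapped.

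DNAJC1, an ER membrane J protein that binds BiP, was the only member called in opposite directions at 12 h and 48 h. It read 9.96, 10.02 and 10.07 in CdCl cells at 12 h, against 10.19, 10.22 and 10.20 in control cells. At 48 h it read 11.53, 11.42 and 11.52 in CdCl cells, against 11.04, 10.87 and 11.07 in control cells. The arrays separated at both times, downward at 12 h and upward at 48 h. The 12 h difference of -0.18 ± 0.07 was close to the threshold (limma adjusted p = 0.042), lost its call without the first or the second CdCl array of 12 h, any control array of 12 h, the first or the third CdCl array of 48 h or the first control array of 48 h (adjusted p up to 0.13), and lost it with the arrays centred on their medians. The 48 h difference was 0.50 ± 0.07 (adjusted p = 8.8e-05). DNAJC16 read 6.83, 6.93 and 6.57 in CdCl cells at 12 h, against 7.40, 7.38 and 7.43 in control cells, and was 1.54-fold lower (adjusted p = 0.00046), while at 48 h both groups averaged 7.69. DNAJC14 had no call at either time.

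No mitochondrial member was higher in CdCl cells at either time. DNAJA3 (Tid1), the main partner of HSPA9 in the matrix, read 8.96, 9.09 and 8.93 in CdCl cells at 12 h, against 9.12, 9.20 and 8.88 in control cells. After 48 h it read 9.56, 9.63 and 9.61 in CdCl cells, against 9.60, 9.64 and 9.74 in control cells. The groups overlapped at both times, and the 95% interval of the difference ran from -0.27 to 0.11 at 12 h and from -0.25 to 0.13 at 48 h. DNAJC11, which associates with the cristae-organising MICOS complex, also had no call, with a 12 h difference of -0.18 ± 0.07 (limma adjusted p = 0.062) that was -0.25 and called (adjusted p = 0.012) without the second CdCl array.

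DNAJC19, a subunit of the motor that imports proteins into the matrix, read 8.81, 8.78 and 8.74 in CdCl cells at 12 h, against 9.46, 9.27 and 9.30 in control cells. Its 48 h levels were 9.35, 9.46 and 9.38 in CdCl cells, against 9.66, 9.59 and 9.62 in control cells. It stood lower without overlap at both times. The difference was -0.57 ± 0.07 at 12 h and -0.23 ± 0.07 at 48 h (limma adjusted p = 2.8e-05 and 0.013). DNAJC30, which acts on the respiratory chain, read 6.15, 6.15 and 6.19 in CdCl cells at 12 h, against 7.22, 6.91 and 7.01 in control cells, and was 1.85-fold lower (adjusted p = 7.8e-06). The 48 h readings were 6.84, 7.03 and 6.92 in CdCl cells, against 6.88, 6.83 and 7.01 in control cells, and the groups overlapped. DNAJC15, the other import motor member, read between 2.27 and 2.31 on all 12 arrays and was not tested.

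Of the 3 members of vesicles and endosomes, DNAJC6 (auxilin), which strips clathrin from coated vesicles with HSC70, was the most changed. It read 9.50, 9.55 and 9.70 in CdCl cells at 12 h, against 8.62, 8.42 and 8.44 in control cells. At 48 h it read 9.01, 8.87 and 8.96 in CdCl cells, against 8.60, 8.65 and 8.40 in control cells. Like DNAJB1 it was highest in CdCl cells at 12 h and did not overlap its controls, with differences of 1.09 ± 0.09 and 0.39 ± 0.09 (limma adjusted p = 1.9e-06 and 0.003).

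DNAJC13 (RME-8), an endosomal sorting protein, read 9.12, 9.05 and 8.93 in CdCl cells at 12 h, against 9.56, 9.61 and 9.60 in control cells. After 48 h it read 9.07, 9.15 and 9.22 in CdCl cells, against 9.48, 9.59 and 9.46 in control cells. It was lower at both times without overlap, by 1.46-fold and 1.29-fold (limma adjusted p = 5.5e-05 and 0.0011). DNAJC5 (cysteine string protein alpha), which guards proteins of secretory vesicles, read 7.69, 7.53 and 7.49 in CdCl cells at 48 h, against 7.26, 7.23 and 7.06 in control cells, a difference of 0.39 ± 0.09 (adjusted p = 0.0031), and had no call at 12 h.

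Locations were not assigned to 5 members, of which 4 were tested. DNAJC27 read 5.27, 5.23 and 4.61 in CdCl cells at 12 h, against 5.89, 5.77 and 5.57 in control cells, a difference of -0.71 ± 0.26 (limma adjusted p = 0.038) that lost its call without the third CdCl array of 12 h (-0.50), the first or the second control array of 12 h or the first control array of 48 h. DNAJC4 read 4.40, 4.30 and 4.54 in CdCl cells at 12 h against 4.81, 4.80 and 4.83 in control cells, and 4.69, 4.08 and 4.23 in CdCl cells at 48 h against 4.99, 5.18 and 4.71 in control cells. DNAJC4 was lower without overlap at both times, by 1.32-fold and 1.54-fold (adjusted p = 0.041 and 0.0041), and its 12 h call was lost without the first or the second CdCl array of 12 h, any control array of 12 h or the first control array of 48 h. The DNAJC4 arrays read 4.08 to 5.18, close to the floor of 4, and its other probe sets did not pass the filter. DNAJC18 and DNAJC22 had no call on their brightest probe sets. Without the second CdCl array of 48 h DNAJC22 was lower at that time (-0.88, against -0.58 with all arrays), and without the third CdCl array of 12 h DNAJC18 was higher at that time (0.36, against 0.17).

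Of the 13 symbols that were not tested, 12 read below 4 on all 12 arrays. They included the 5 coding members best known from testis (DNAJB7, DNAJB8, DNAJB13, DNAJC5B and DNAJC5G), between 2.12 and 2.88, the cytosolic DNAJA4 and DNAJB5, and all 4 non-coding transcripts. Just outside the filter lay DNAJC28, above 4 on 2 arrays (means from 3.64 to 3.99), and just inside it DNAJC17 (means from 4.03 to 4.17). Of the symbols below the filter, DNAJC3-DT read 3.46, 3.44 and 3.56 in CdCl cells at 48 h, against 2.95, 2.99 and 2.60 in control cells, without overlap, and was not tested. Signals this close to background limit what can be seen of these genes.

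The 12 h and 48 h comparisons use separate arrays. Higher at both times were the 10 members DNAJA1, DNAJB1, DNAJB2, DNAJB4, DNAJB6, DNAJB9, DNAJB11, DNAJC3, DNAJC6 and DNAJC24, where 11.4% of all genes tested were higher at both. Lower at both times were the 5 members DNAJB12, DNAJC4, DNAJC9, DNAJC13 and DNAJC19, where 19% of all genes were. Opposite calls came from 1 member, DNAJC1, where 5.24% of all genes had them. At neither time were 8 members called.

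The change in the CdCl effect between the times was tested as an interaction, the 48 h difference minus the 12 h difference. It was positive in 5 members and negative in 11, where over all genes tested 27% were positive and 13% were negative. None of the 8 tested DNAJB members had a positive interaction, and 6 had a negative interaction. The ER luminal DNAJB9 (0.28 at 48 h and 2.45 at 12 h, interaction -2.17 ± 0.11, limma adjusted p = 3.7e-07) and DNAJC3 (0.55 at 48 h and 2.55 at 12 h, interaction -2.01 ± 0.23, adjusted p = 7.8e-05) had the most negative values among the members. The cytosolic DNAJB4 and DNAJB1 followed with -1.21 ± 0.16 and -1.18 ± 0.09 (adjusted p = 2e-04 and 6e-06). Positive interactions went with a 12 h difference below 0 in DNAJC30 (0.91 ± 0.12), DNAJC1 (0.68 ± 0.10), DNAJC16 (0.63 ± 0.15) and DNAJC19 (0.34 ± 0.09), and with a 12 h difference of 0.12 in DNAJC10 (0.30 ± 0.11). The interactions of DNAJC10 and DNAJB6, both at an adjusted p of 0.047, were fragile. That of DNAJC10 was lost when any single array was left out except the third CdCl array of 12 h or the second CdCl array of 48 h, and that of DNAJB6 when any was left out except the first CdCl array of 12 h or the first or the third CdCl array of 48 h. The interactions of DNAJC10 and DNAJC19 were lost with the arrays centred on their medians or quantile-normalised.

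Comparisons of the times within each treatment give the levels behind these interactions. They share arrays with the comparisons above, so the values are set side by side only. In CdCl cells, 15 members were higher and 7 were lower at 48 h than at 12 h (background 34.7% and 27.6%), and in control cells 13 were higher and 4 were lower (background 23.4% and 33.5%). For DNAJB1, CdCl cells changed by -1.30 ± 0.06 between the times (limma adjusted p = 1.6e-08) and control cells by -0.12 ± 0.06 (adjusted p = 0.13). For DNAJC3, CdCl cells were higher at 48 h than at 12 h by 1.11 ± 0.16 and control cells by 3.11 ± 0.16 (adjusted p = 9.6e-05 and 3e-08). All 4 ER luminal members were higher at 48 h than at 12 h in CdCl cells, by 1.08 to 1.21, and in control cells, by 0.91 to 3.25. DNAJC12 was higher at 48 h by 2.15 ± 0.08 in CdCl cells and by 3.23 ± 0.08 in control cells. Of the 4 tested mitochondrial members, 3 were higher at 48 h in CdCl cells, among them DNAJC30 by 0.77 ± 0.09, and 2 in control cells.

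Several DNAJ genes have more than 1 probe set above the filter, which reads other parts of the same transcripts. In the 12 h comparison, 18 further probe sets belonged to called members, of which 14 had the same call, 4 had no call and 0 had the opposite call. In the 48 h comparison there were 30, of which 20 had the same call, 10 had no call and 0 had the opposite call. The other probe set of DNAJB1 gave 3.35 at 12 h and 2.05 at 48 h, and the other probe sets of DNAJC3 gave 1.48 to 3.60 at 12 h and 0.42 to 0.86 at 48 h. Probe sets of DNAJC22 and DNAJC12 spread more widely. Another probe set of DNAJC22 gave -1.90 at 48 h (limma adjusted p over all probe sets = 8.3e-06) where the brightest had no call, and of the other probe sets of DNAJC12 1 gave -0.94 at 48 h, near the -0.93 of the brightest, and 1 gave 0.17. Members with no call had 21 further probe sets at 12 h, of which 3 were called higher and 4 lower, and 9 at 48 h, of which 0 were higher and 2 lower. The other probe set of DNAJC7 was called higher at 12 h (0.74) and lower at 48 h (-0.30), with limma adjusted p over all probe sets of 5.6e-05 and 0.019. That probe set of DNAJC7 read close to the floor of 4, above it on 9 of the 12 arrays, with a 12 h control mean of 3.83. At 12 h, DNAJB14 had a probe set called lower (-0.35) and DNAJC10 had a probe set called higher (0.29).

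**Figure D3:**
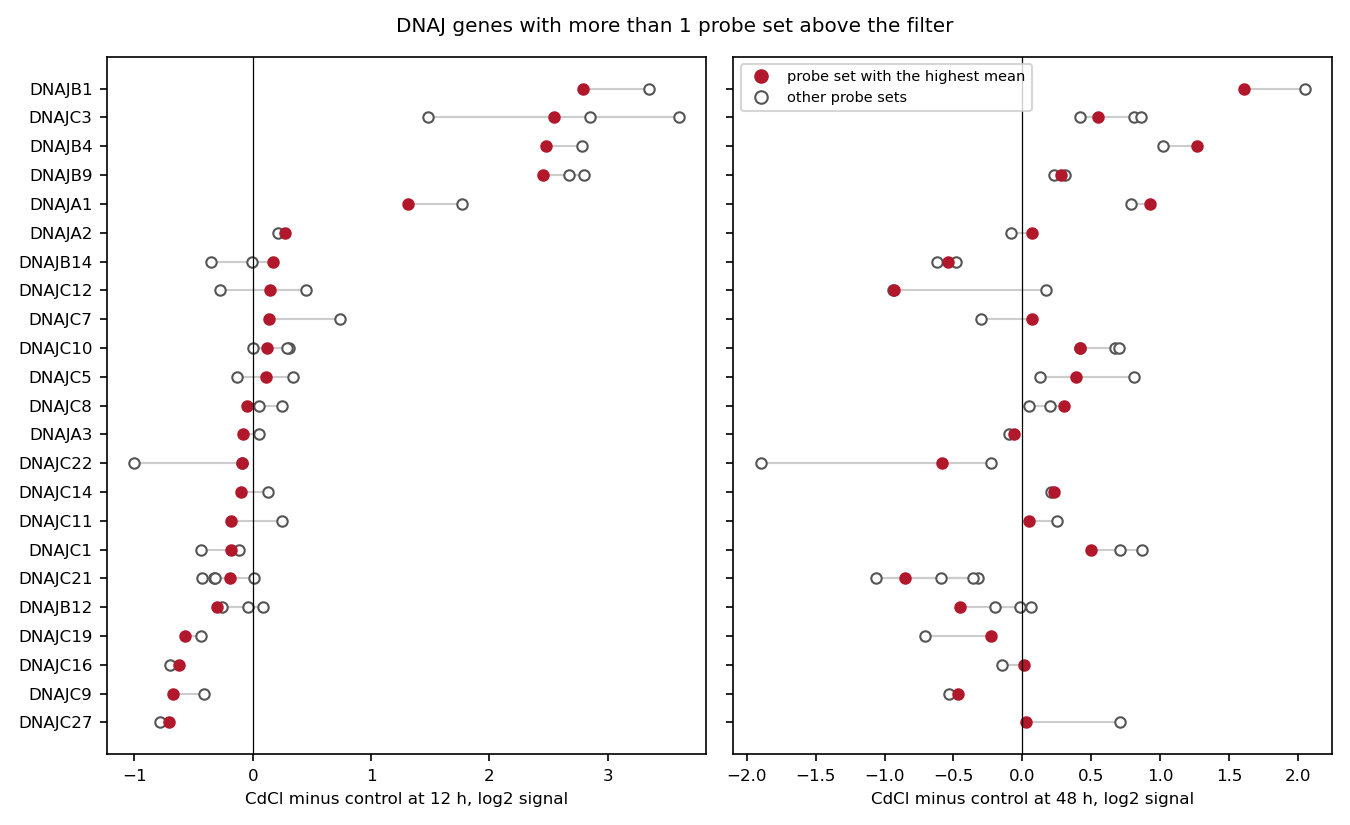
Difference between CdCl and control cells in log2 signal for every probe set above the filter of the DNAJ genes that have several, at 12 h (left) and 48 h (right); filled red points are the probe sets used for the gene, open points the others, and lines join the probe sets of a gene. DNAJC3 spreads from 1.48 to 3.60 at 12 h, and DNAJC12 and DNAJC22 spread widely at 48 h.

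The HSP70 proteins and exchange factors that the members work with were read from a list by compartment, together with J proteins named outside the DNAJ scheme. Of 26 listed genes, 23 had a probe set of their own, and HSPA1A, HSPA1B and HSPA8 were not analysed here. At 12 h, 14 of the 23 were higher and 5 were lower, and at 48 h 12 were higher and 4 were lower, beside 16.7% higher and 39.7% lower at 12 h and 26.5% and 28% at 48 h over all genes tested. In the cytosol, HSPA6, a strictly inducible HSP70, read 11.11, 10.97 and 10.89 in CdCl cells at 12 h against 2.48, 2.48 and 2.54 in control cells, and 7.28, 6.95 and 7.47 in CdCl cells at 48 h against 2.50, 2.40 and 2.54 in control cells. With the control level set to the floor of 4, HSPA6 was at least 127-fold higher at 12 h and at least 9.43-fold higher at 48 h. The exchange factors BAG3 and HSPH1 were higher by 3.23 and 2.29 at 12 h and by 1.96 and 1.90 at 48 h.

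In the ER, HSPA5 (BiP) read 14.65, 14.75 and 14.90 in CdCl cells at 12 h against 13.02, 13.17 and 13.22 in control cells, and 15.27, 15.19 and 15.32 in CdCl cells at 48 h against 15.10, 15.17 and 15.01 in control cells. As with DNAJB9, its controls at 48 h lay above its CdCl arrays at 12 h. HSPA5 was higher at 12 h by 1.63 and had no call at 48 h (0.16). Its 48 h readings in both groups lay near the highest signal on each array, 15.65 to 15.79, and the effect of this was not tested. The exchange factor HYOU1 was higher at both times, by 1.10 and 0.77, and SIL1 was higher only in the 48 h calls, by 0.68. In mitochondria, HSPA9 read 11.53, 11.54 and 11.52 in CdCl cells at 12 h, against 11.62, 11.54 and 11.45 in control cells, and had no call at either time. Its exchange factors went apart, GRPEL1 being higher by 0.62 and 0.78 and GRPEL2 lower by 0.50 and 0.35 on the log2 scale.

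**Figure D4:**
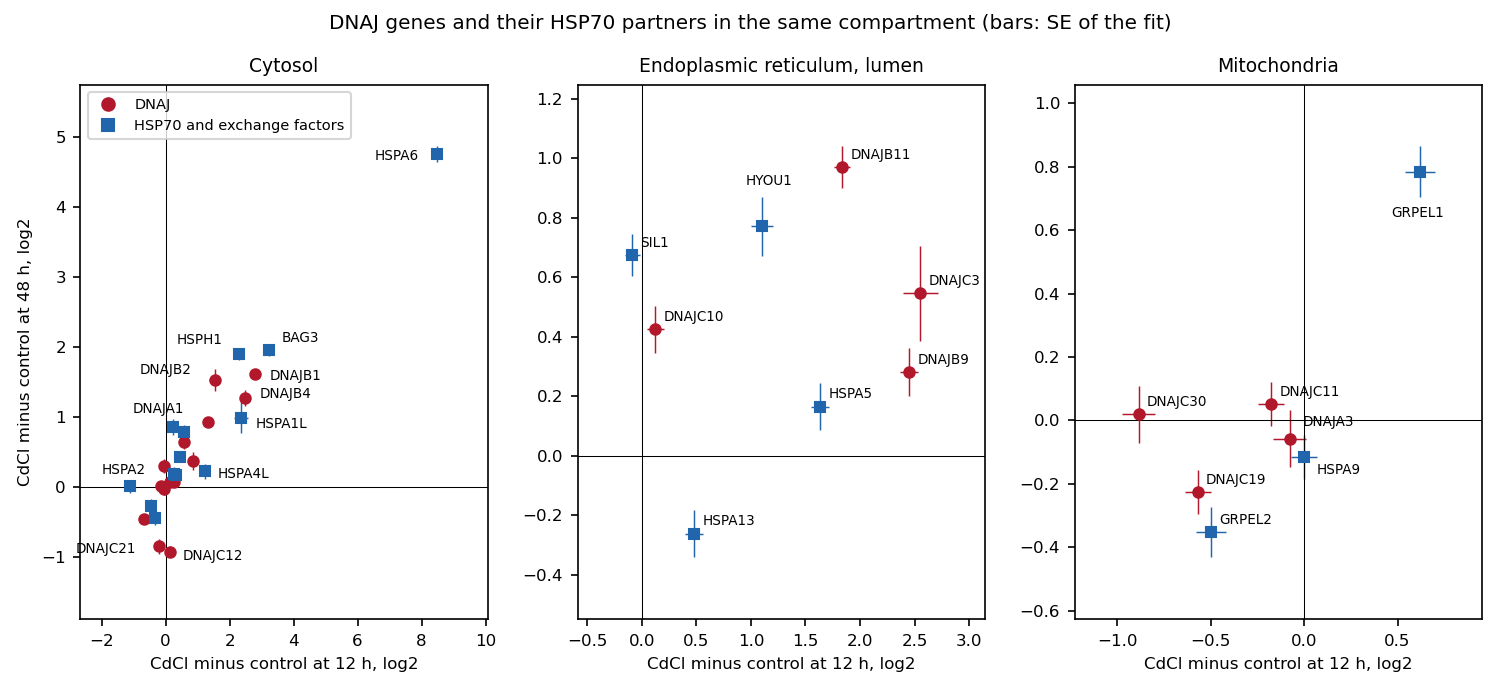
Difference between CdCl and control cells in log2 signal at 12 h (horizontal) and 48 h (vertical) for tested DNAJ genes (red circles) and HSP70 proteins with their exchange factors (blue squares) in the cytosol, ER lumen and mitochondria; bars are the SE of the fit, each panel has its own scale, and labels in the cytosol panel name the genes with the larger changes. HSPA6 is far to the upper right in the cytosol. All 4 tested mitochondrial DNAJ genes lie left of 0 on the horizontal axis, where the median of all genes tested was -0.16. Of these 4 genes, 2 were called lower at 12 h. The other probe sets of the uncalled DNAJA3 and DNAJC11 gave 0.05 and 0.25 at 12 h.

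Genes most like 3 members over the 12 arrays were found by Pearson correlation among the genes tested, as a description over arrays that share 4 group means. The pattern of DNAJB1 was closest to HSPA6 (r = 0.998), ANKRD1 (0.996), DLX2 (0.995), FBXO30 (0.994) and ZSCAN31 (0.993). That of DNAJC3 was closest to HSPA5 (0.994), SLFN5 (0.992), SLC7A1 (0.991), DNAJB9 (0.990) and SESN2 (0.987). For DNAJA3 the closest were EYA4 (0.983), TMEM167B (0.979), CHRNB1 (0.977), ZNF226 (0.976) and SMPDL3B (0.972).

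The median of the genes tested was -0.16 in the 12 h comparison, and members near that value changed their call with the scaling. With each array centred on its median, the members called at 12 h were 16 higher and 5 lower in place of 11 and 9. Over all 10683 genes tested, 2607 were then higher and 2830 lower at 12 h, in place of 1783 and 4246. Among the members, all 11 higher calls remained, and DNAJB14, DNAJC5, DNAJC7, DNAJC10 and DNAJC12 joined them. DNAJB12, DNAJC1, DNAJC4 and DNAJC27 lost their lower call. The lower calls of DNAJC9, DNAJC13, DNAJC16, DNAJC19 and DNAJC30 remained. Poly-A control transcripts added to the RNA before labelling averaged 6.48 to 6.54 in CdCl cells and 5.97 to 6.18 in control cells at 12 h, and 5.40 to 6.19 in CdCl cells and 5.67 to 5.84 in control cells at 48 h. The GAPDH signal at the 3' end minus that at the 5' end, a measure of RNA quality, was -0.05 to 0.00 in CdCl cells and 0.02 to 0.20 in control cells at 12 h, and -0.05 to 0.06 in CdCl cells and -0.04 to 0.01 in control cells at 48 h. For actin it was 1.69 to 1.80 in CdCl cells and 1.71 to 2.11 in control cells at 12 h, and 1.40 to 1.82 in CdCl cells and 1.36 to 1.57 in control cells at 48 h. The part of these differences in the members' values was not tested.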

How the data were processed

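The values are log2 signals per probe set that the authors deposited for 12 Affymetrix arrays with 54675 probe sets, made with GCRMA per the submitters' processing notes, its version not being given in the sources used here. GCRMA corrects background by probe sequence, normalises between arrays and summarises probe sets, which compresses low signals near a floor. No value was missing, every column was mapped to a sample, and array medians lay between 2.97 and 3.04.

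Symbols came from the platform annotation. All 4 group means were fitted in limma 3.58.1 (R 4.3.3; lmFit, eBayes, constant prior) over 10683 genes above 4 on at least 3 arrays, two-sided, and checked on simulated data. An exact permutation test of 3 against 3 arrays cannot go below p = 0.1. The number of arrays limits the precision.

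Members, locations (background knowledge) and partner lists were chosen with earlier results of these data known. Every member may be named. Array values are given for DNAJB1, DNAJA1, DNAJB4, DNAJB9, DNAJB11, DNAJC3, DNAJC10, DNAJA3, DNAJC15 and DNAJC19 and for up to 3 members of each location with the largest called change at each time. Alternatives covered probe set choice, filter, scaling, prior, arrays in the fit, replicate block and single arrays left out, and a fit over all probe sets was added after seeing the data.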

Additional observations from a re-analysis of the deposited data

Results flagged for a closer look

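In 16 members the CdCl effect differed between 48 h and 12 h by a test of that difference (limma, the interaction at an adjusted p under 0.05), each value being the 48 h effect minus the 12 h effect on the log2 scale. The value was negative in 11 members. Of these, the ER luminal members were DNAJB9 (-2.17), DNAJC3 (-2.01) and DNAJB11 (-0.86). The cytosolic members were DNAJB4 (-1.21), DNAJB1 (-1.18), DNAJC12 (-1.08), DNAJC21 (-0.66), DNAJB6 (-0.49) and DNAJA1 (-0.38). The remaining negative values were those of DNAJB14 of the ER membrane (-0.71) and of DNAJC6 (-0.70). The value was positive in 5 members, the mitochondrial DNAJC30 (0.91) and DNAJC19 (0.34), the ER membrane members DNAJC1 (0.68) and DNAJC16 (0.63), and the ER luminal DNAJC10 (0.30).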

How the results depend on the processing

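Members' calls at 48 h did not change with the scaling, whereas at 12 h 5 members were lower with each array centred on its median, against 9 as deposited. Over all genes tested, 2830 were lower at 12 h under centring, against 4246. Positive interactions of members numbered 3 under centring and 3 under quantile normalisation, against 5. Over all genes tested they numbered 1907 and 2075, against 2888. With each gene's second probe set (27 members tested), 9 members were higher at 48 h and 2 had a positive interaction. Genes with only 1 probe set kept it in this alternative. For DNAJB2, DNAJB6, DNAJB11 and DNAJC17 it therefore repeats the main reading and gives no second one. Where either reading had a call, signs turned for DNAJB14 at 12 h (-0.35), DNAJB12 at 48 h (0.06) and DNAJC7 at 48 h (-0.30). The interactions of DNAJC19 (-0.28) and DNAJC21 (0.01) turned as well. A further 10 member results changed sign without a call in either reading. The cause of these sign changes was not tested. Leaving out each array in turn gave 11 to 11 higher and 6 to 9 lower members at 12 h, 12 to 14 and 8 to 9 at 48 h, and 4 to 6 and 10 to 11 in the interaction. The 11 were not always the same members. Without the third CdCl array of 12 h, DNAJA2 lost its higher call and DNAJC18 gained one. Replicate numbers did not pair the arrays (correlations of deviations between -0.34 and 0.16), and with the replicate block 11 members were higher and 7 lower at 12 h, 14 and 8 at 48 h, and 4 and 10 in the interaction. A fit on the arrays of the comparison alone was not run for the interaction, which needs all 12. Of 947 member results under the alternatives other than leaving out an array, 839 kept their sign and their call or lack of one. With the sign unchanged, 40 lost a call and 28 gained one. The sign changed in 35 results without a call in either fit, and in 5 results with a call.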

Other observations

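Among J proteins named outside the DNAJ scheme, GAK, the widely expressed relative of auxilin (DNAJC6), read 8.08, 8.04 and 8.03 in CdCl cells at 12 h, against 8.46, 8.52 and 8.60 in control cells. At 48 h it read 8.75, 8.79 and 8.61 in CdCl cells, against 8.40, 8.66 and 8.18 in control cells. GAK was lower at 12 h by 0.48 on the log2 scale and higher at 48 h by 0.30 ± 0.11 with 1 control array among the CdCl arrays (limma adjusted p = 0.0023 and 0.029). HSCB, a mitochondrial J protein that serves iron-sulfur cluster transfer, was higher by 0.32 ± 0.11 at 12 h and 0.50 ± 0.11 at 48 h (adjusted p = 0.028 and 0.0022). SEC63, the J protein of the ER translocon, had no call at either time.

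The HSP70 proteins and exchange factors of the cytosol did not all change one way. HSPA2 read 8.63, 8.67 and 8.60 in CdCl cells at 12 h, against 9.70, 9.88 and 9.63 in control cells, and was lower by 1.10 on the log2 scale (limma adjusted p = 1.7e-06), while both groups averaged 7.78 at 48 h. The exchange factor HSPA4L was higher by 1.24 ± 0.11 at 12 h and had no call at 48 h. BAG2 was higher by 0.58 and 0.79, and BAG4 and BAG5 were lower at both times, by 0.33 and 0.44 at 12 h and by 0.45 and 0.27 at 48 h on the log2 scale. In the ER, HSPA13, an HSP70-like protein, was higher at 12 h (0.48 ± 0.08) and lower at 48 h (-0.26 ± 0.08), with adjusted p = 0.00051 and 0.02.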
